A study of Mus musculus with 24 samples.

Results

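Acyl-CoA thioesterases cleave the thioester bond of an acyl-CoA and release the free fatty acid and coenzyme A. The 10 members described here were Acot1, Acot2, Acot3, Acot4, Acot5, Acot7, Acot8, Acot9, Acot12 and Acot13. They were found by gene name among the probes of the array, which held all 10 through 15 probes, of 37324 gene symbols in all. Each gene was read through the 1 probe with the highest mean signal over all arrays, and the other probes served as a check. All 10 passed the filter on dim probes and were tested with 21495 genes.

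Livers of male mice aged 12 weeks were profiled on 24 single-colour Agilent arrays, 1 mouse per array and 6 mice in each of 4 groups. LWT mice carried floxed alleles of Pik3ca, the gene of the phosphoinositide 3-kinase subunit p110α, without Cre. LKO mice carried the same floxed alleles and albumin-Cre, which deletes part of the gene in hepatocytes and leaves the other cells of the liver floxed. Fed mice ate freely, fasted mice had no food for 24 h, and all were killed at Zeitgeber time 16 h, in the dark phase. Whole liver was extracted, so fewer cells of a type and less RNA per cell cannot be told apart in any value below.

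Members of this family fall into 2 structural types that hydrolyse related substrates. Type I enzymes share an alpha/beta hydrolase fold. Their mouse genes lie side by side on chromosome 12 and their products are sent to different compartments, with Acot1 in the cytosol, Acot2 in the mitochondrial matrix and Acot3, Acot4 and Acot5 in peroxisomes. Type II enzymes have a hotdog fold and lie on other chromosomes. Among these, Acot8 is peroxisomal, Acot9 is mitochondrial, Acot12 is a cytosolic acetyl-CoA hydrolase, Acot7 is a long-chain acyl-CoA hydrolase known mainly from brain, and Acot13 is also called Them2. Several type I genes are known targets of PPARα, the nuclear receptor that fatty acids activate in the fasted liver.

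The type I genes are close paralogs, so the values depend on the probe that reads each one. The first 30 bases of the 60-base probe of each are shown, 5′ to 3′, since each gene's values come from its probe, and no letters are marked in them.
Acot1: tatcaaaatagtgctgattcaagggctggg
Acot2: atggtagaaggagagaacaaactctgacaa
Acot3: gtgtacacacacacatatacacacaagcac
Acot4: tgctggatgacatgaaattcatgtttaggg
Acot5: ggagaagccccagattgtctgctaccccaa
In the mm9 build these probes lie on the plus strand at chr12:85358452-85358511 for Acot1, chr12:85334553-85334612 for Acot2, chr12:85400452-85400511 for Acot3, chr12:85384821-85384880 for Acot4 and chr12:85416634-85416693 for Acot5. The longest run of bases shared by any pair of these 5 probes was 9. The Acot3 probe holds a CA repeat and shared a run of 21 bases with a probe of Itgam. The Acot2 probe shared 17 with a probe of Gm10404, and the other 3 shared fewer than 16 with any probe of another gene. Matches between a probe and the transcripts of the neighbouring paralogs were not tested, because transcript sequences were not used here.

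Promoter windows were read from RefSeq (GRCm38.p6) for 9 of the 10 members, all but Acot13, as the 250 bases before the annotated start, and where a gene had several starts the lowest coordinate was taken. The windows of Acot1, Acot2 and Acot3 are shown because these type I genes were among the members that rose together with fasting. Capitals mark a CCAAT box, CCAAT on either strand.
Acot1: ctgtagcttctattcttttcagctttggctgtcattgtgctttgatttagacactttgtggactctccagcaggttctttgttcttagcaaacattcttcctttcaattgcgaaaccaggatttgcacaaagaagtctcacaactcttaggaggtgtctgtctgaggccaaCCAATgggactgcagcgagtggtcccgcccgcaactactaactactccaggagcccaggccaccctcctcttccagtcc
Acot2: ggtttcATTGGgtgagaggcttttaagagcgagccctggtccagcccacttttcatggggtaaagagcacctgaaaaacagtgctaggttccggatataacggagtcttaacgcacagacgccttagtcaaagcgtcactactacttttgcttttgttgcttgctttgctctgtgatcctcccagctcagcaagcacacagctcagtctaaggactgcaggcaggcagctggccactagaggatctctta
Acot3: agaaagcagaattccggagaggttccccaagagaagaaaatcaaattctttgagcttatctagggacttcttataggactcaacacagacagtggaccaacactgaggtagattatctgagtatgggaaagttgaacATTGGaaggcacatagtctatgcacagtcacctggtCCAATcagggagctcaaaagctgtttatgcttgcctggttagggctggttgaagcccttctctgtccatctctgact
They lie on the plus strand at chr12:84009252-84009501, chr12:83987611-83987860 and chr12:84051894-84052143. A CCAAT box was found in 7 of the 9 windows, those of all 5 type I genes, Acot8 and Acot9. It was found in 33.8% of the 32851 promoter windows of the same length. Acot12, which rose with fasting, had no such box, while Acot9, not called with fasting, had it. This motif was added after the sequences had been read. The core motif of nuclear receptors, AGGTCA on either strand, was found in the windows of 3 members and in 14% of all windows. The 30 bases around it are shown with the core motif in capitals, which reads on the minus strand in each.
Acot4: ggctcagccccgaagcaTGACCTttggccg
Acot5: atttcacctgggTGACCTgactcctcatgc
Acot12: ctcgtaggacccTGACCTctcacctcctaa
These stretches lie on the plus strand at chr12:84038349-84038378, chr12:84069088-84069117 and chr13:91741399-91741428. The E-box CACGTG was found in the window of Acot4 alone among the members and in 6.02% of all windows. Neither a loose form of the PPAR element, 2 copies of the core motif spaced by 1 base with any base at the fourth position of each copy, nor the FOXO site GTAAACA was found in a member's window on either strand. All windows held them in 0.338% and 3.17%. A match is a description of letters and not of binding.

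The share of probes well above background ran from 54.7% to 63% over the arrays, and no spot was saturated. Summed hepatocyte markers lay between 20.58 and 20.75 on the log2 scale on every array, and none of the 8 was called in any comparison. The probe of Pik3ca was not lower in the arrays labelled LKO. Its log2 difference from LWT was 0.58 (SE 0.113, adjusted p = 0.00146, limma) in fed mice and -0.02 (SE 0.12, adjusted p = 0.93, limma) in fasted mice, and whether it lies in the deleted part was not tested. LKO names the label below. LKO fasted replicates 1 and 2 had mean correlations with their group of 0.991 and 0.9908, against 0.9921 to 0.9932 for replicates 3, 5 and 6. Replicate 4 had the lowest mean correlation with its own group of all 24 arrays, 0.988. Calls of members that rest on replicates 1, 2 and 4 are given with and without them.

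Fasting in LWT mice was compared first, which asks which thioesterases respond to food withdrawal in mice without Cre. All 5 type I genes rose, along with Acot8 and Acot12 of type II, and no member fell. Calls needed a fold change over 1.5 and a p of 0.05 or less after Benjamini-Hochberg adjustment across the probes kept, from a limma fit of all 24 arrays with the slide as a term. By this rule 4.8% of all genes tested rose and 5.22% fell. Acot5, a peroxisomal enzyme for medium- and long-chain acyl-CoA, had the largest value on the log2 scale by the chosen probes, but not when all kept probes of a gene were averaged, where it was 2.46 against 3.52 for Acot3 and 3.48 for Acot2. The average for Acot5 takes in a second probe that was dim in fed mice.

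Levels are quantile normalized log2 signals of 1 probe and are compared only within a gene. Acot1 ranged from 12.83 to 13.66 (median 13.21) in LWT fed mice and from 16.16 to 16.70 (median 16.42) in LWT fasted mice. The groups did not overlap, and the log2 fold change was 3.21 (SE 0.214, n = 6 per group, adjusted p = 1.67e-10, limma), or 9.26-fold.

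Acot2, the mitochondrial enzyme, ranged from 8.01 to 9.08 (median 8.56) in LWT fed mice and from 11.38 to 12.38 (median 12.11) in fasted mice. Its log2 fold change was 3.48 (SE 0.273, adjusted p = 1.83e-09), or 11.2-fold. Replicate 5 was the lowest of the LWT fasted arrays and still lay above every fed array.

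Among the peroxisomal members, Acot3 ranged from 9.05 to 11.04 (median 10.48) in LWT fed mice and from 12.57 to 14.03 (median 13.36) in fasted mice. Its fed mice spread over more than the fed mice of any other type I gene, with an SD of 0.75, and the fold change was 3.14 (SE 0.355, adjusted p = 3.53e-07) on the log2 scale. Acot4 went from 9.61 to 10.61 (median 10.18) in fed mice to 11.10 to 12.11 (median 11.66) in fasted mice. At 1.61 (SE 0.208, adjusted p = 2.06e-06) its log2 fold change was the smallest of the type I genes. Acot5 went from 7.50 to 8.32 (median 7.69) to 10.88 to 11.91 (median 11.49), and its log2 fold change was 3.67 (SE 0.227, adjusted p = 5.98e-11). None of these 3 genes had a fasted array within the range of its fed arrays.

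**Figure D1:**
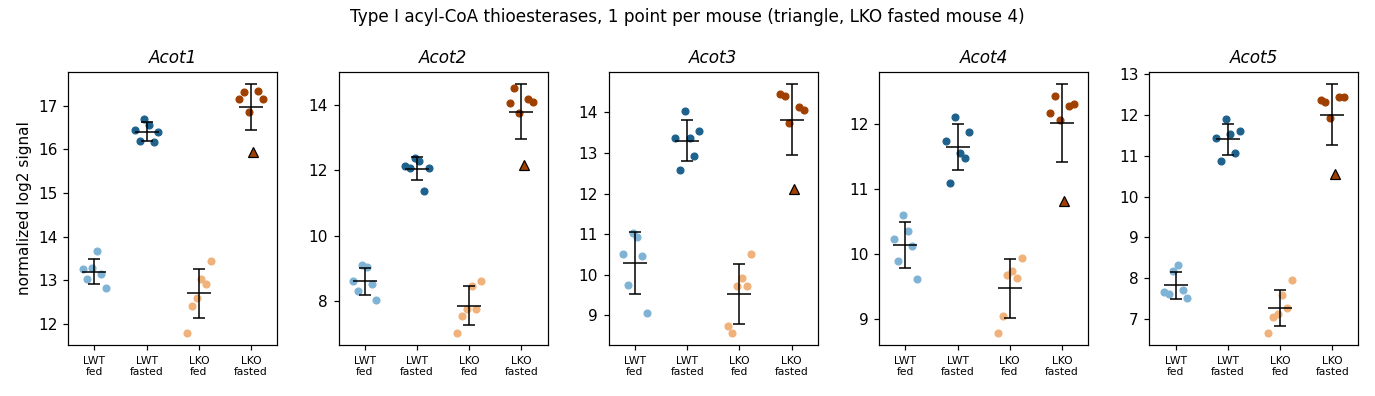
Normalized log2 signal (vertical axis, a scale of its own for each gene) of the 5 type I genes in the 4 groups (horizontal axis), with 1 point per mouse, a horizontal mark at the mean and bars of 1 SD (n = 6). Fasted arrays lie above all fed arrays of the same genotype in every panel, and the triangle, LKO fasted replicate 4, is the lowest of its group in all 5.

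Fasting in LKO mice raised the same 7 genes, and again no member fell. By the same rule 5.9% of all genes tested rose and 6.88% fell. Acot2 was the gene with the second largest rise of the 21495 tested. Its 6 fed arrays ranged from 7.02 to 8.61 (median 7.73) and its fasted arrays from 12.16 to 14.53 (median 14.09). The log2 fold change was 6.17 (SE 0.302, adjusted p = 1.4e-12), or 72-fold.

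Acot1 ranged from 11.81 to 13.45 (median 12.75) in LKO fed mice and from 15.94 to 17.34 (median 17.15) in LKO fasted mice, which differed by 4.43 on the log2 scale (SE 0.237, adjusted p = 4.22e-12). Acot5 ranged from 6.66 to 7.94 (median 7.19) in fed mice and from 10.55 to 12.45 (median 12.36) in fasted mice, a change of 4.94 (SE 0.251, adjusted p = 2.14e-12) on the log2 scale. Both genes had fed and fasted arrays well apart. The rise of Acot3 was 4.47 on the log2 scale (SE 0.393, adjusted p = 7.1e-09), with fed arrays from 8.58 to 10.50 (median 9.73) and fasted arrays from 12.12 to 14.46 (median 14.10). For Acot4 the fed range was 8.79 to 9.94 (median 9.66), the fasted range 10.81 to 12.44 (median 12.23) and the log2 fold change 2.69 (SE 0.23, adjusted p = 4.84e-09).

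The fed and fasted groups of 7 members did not overlap in LWT mice, against 21.6% of all genes tested, and those of 7 members did not overlap in LKO mice, against 22.1%. The median log2 fold change over the 5 type I genes was 3.21 in LWT and 4.47 in LKO, while over all genes tested it was -0.01 and -0.02. Without LKO fasted replicates 1 and 2, the count of members called was 7 in each genotype.

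**Figure D2:**
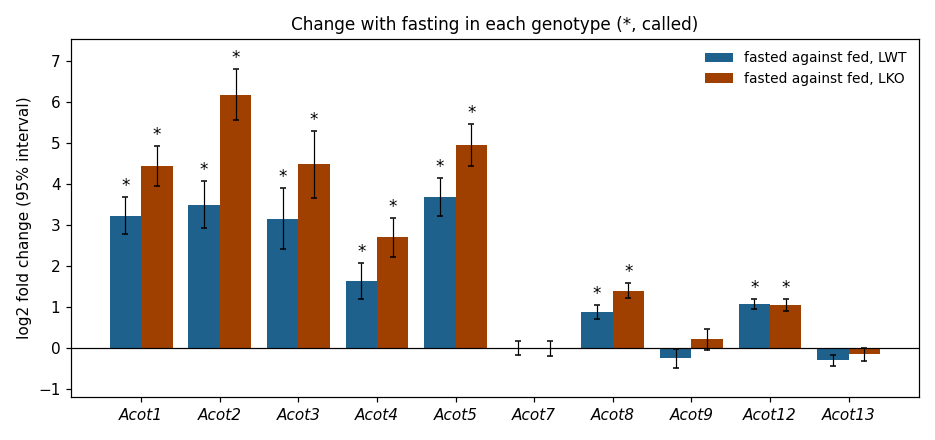
Log2 fold change of fasted against fed mice (vertical axis) in LWT (blue) and LKO (brown) for the 10 members, with 95% intervals from limma and an asterisk over called genes. The 5 type I genes rose by 1.61 to 3.67 in LWT and by 2.69 to 6.17 in LKO, while Acot7, Acot9 and Acot13 stayed within 0.32 of no change.

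The type II genes split. Acot12, which hydrolyses acetyl-CoA in the cytosol, ranged from 11.83 to 12.19 (median 12.07) in LWT fed mice and from 13.04 to 13.24 (median 13.16) in LWT fasted mice. Its log2 fold change was 1.06 (SE 0.0618, adjusted p = 2.9e-11) in LWT and 1.04 (SE 0.0683, adjusted p = 1e-10) in LKO. In LKO mice the fed arrays lay between 11.85 and 12.18 (median 12.00) and the fasted arrays between 12.75 and 13.16 (median 13.06). The difference of both changes was -0.01 with a 95% interval from -0.203 to 0.179.

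Acot8, the peroxisomal type II enzyme with a broad choice of acyl-CoA, ranged from 12.39 to 12.80 (median 12.59) in LWT fed mice and from 13.35 to 13.77 (median 13.46) in LWT fasted mice. Its log2 fold change was 0.86 (SE 0.0818, adjusted p = 2.93e-08). In LKO mice it ranged from 12.08 to 12.48 (median 12.28) when fed and from 13.12 to 13.74 (median 13.66) when fasted, a change of 1.39 (SE 0.0905, adjusted p = 9.75e-11). Fed and fasted arrays did not overlap in either genotype.

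Acot7, Acot9 and Acot13 were not called in any comparison. Acot7 lay between 11.80 and 12.62 over all 24 arrays, and its log2 fold change with fasting was -0.02 in LWT (95% interval from -0.184 to 0.151) and -0.03 in LKO (95% interval from -0.217 to 0.154). Acot13 ranged from 14.67 to 15.00 (median 14.84) in LWT fed mice and from 14.40 to 14.82 (median 14.58) in LWT fasted mice. Its change of -0.32 (SE 0.0697, adjusted p = 0.000871) passed the adjusted p but not the 1.5-fold minimum, and in LKO the change was -0.16 (SE 0.0771, adjusted p = 0.101). Acot9 gave -0.26 (SE 0.111, adjusted p = 0.0656) in LWT and 0.20 (SE 0.122, adjusted p = 0.193) in LKO. Fed and fasted ranges of these 3 genes overlapped in both genotypes.

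**Figure D3:**
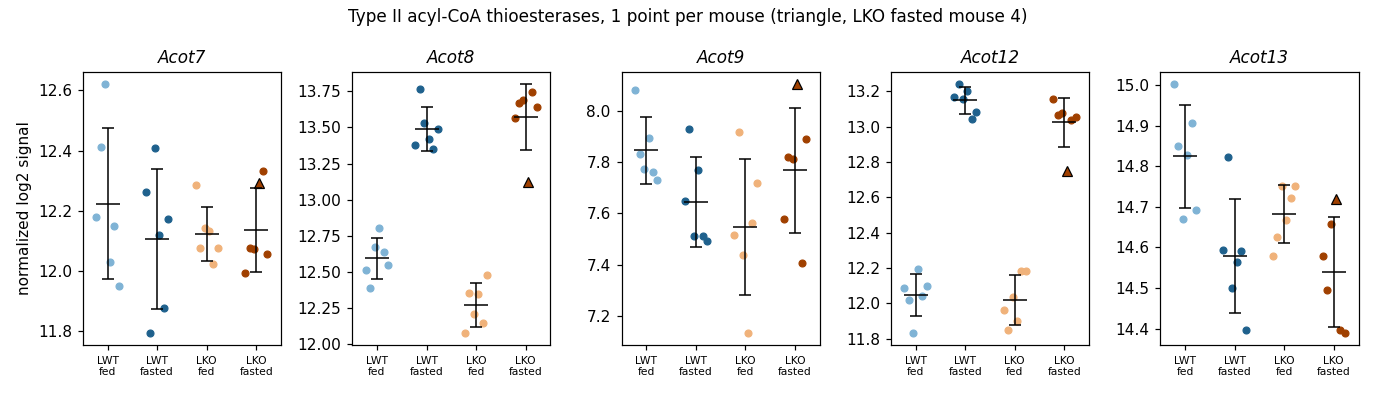
Normalized log2 signal (vertical axis, a scale of its own for each gene) of the 5 type II genes in the 4 groups (horizontal axis), drawn as for type I. Fed and fasted arrays are apart for Acot8 and Acot12 in both genotypes and overlap for Acot7, Acot9 and Acot13.

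Fed LKO and fed LWT mice were compared next, which asks whether loss of p110α alters the family in the fed liver. Of all genes tested, 2.65% were higher and 1.18% lower in LKO, and 1 of the 10 members, Acot4, was called, as lower. Its log2 difference was -0.64 (SE 0.213, adjusted p = 0.0451), with LKO and LWT arrays that overlap between 9.61 and 9.94. The other type I genes had differences of -0.56 for Acot1 (adjusted p = 0.0854), -0.74 for Acot2 (adjusted p = 0.0768), -0.73 for Acot3 (adjusted p = 0.188) and -0.56 for Acot5 (adjusted p = 0.107), none past the threshold. Each of these 4 gained a call when certain single arrays were left out. This was so for Acot1 without LKO fed or LWT fed replicate 6 (-0.72 to -0.68, adjusted p from 0.0232 to 0.0453) and for Acot2 without LKO fasted replicate 4, LKO fed replicates 4 or 6 or LWT fed replicate 6 (-0.89 to -0.74, adjusted p from 0.0384 to 0.0495). Acot3 gained one without LWT fed replicate 6 (-1.03, adjusted p = 0.0394) and Acot5 without LKO fed replicate 6 (-0.70, adjusted p = 0.045). The median over the 5 type I genes was -0.64, beside -0.01 over all genes tested. Ranges of LKO and LWT fed mice overlapped for all 10 members, which was not set against the share of all genes tested.

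Acot8 was -0.34 (SE 0.0837, adjusted p = 0.00876) and Acot9 -0.34 (SE 0.113, adjusted p = 0.0422) in fed LKO against fed LWT mice, both short of the 1.5-fold minimum. Acot7, Acot12 and Acot13 gave -0.01, -0.07 and -0.18. The call of Acot4 was lost when any of 9 arrays was left out, with values between -0.64 and -0.43 and adjusted p between 0.0508 and 0.17. These were LKO fasted replicates 1 and 3, LKO fed replicates 1 and 2, LWT fasted replicates 1 and 6 and LWT fed replicates 1, 4 and 5. Without LKO fasted replicates 1 and 2 together it was -0.64 (adjusted p = 0.0581) and not called. Within the 3 slides the value was -0.87, -0.85 and -0.27.

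In fasted mice 1.77% of all genes tested were higher and 2.28% lower in LKO than in LWT, and 2 members were higher. Acot2 was 3.85-fold higher in LKO, a log2 difference of 1.95 (SE 0.297, adjusted p = 9.55e-05). Of the 6 LKO fasted arrays, all but 1 ranged from 13.76 to 14.53 and lay above all LWT fasted arrays, whose highest value was 12.38. The remaining LKO array, replicate 4, was at 12.16. Within the 3 slides the log2 difference was 1.27, 1.72 and 2.26.

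Acot5 was higher by 0.71 (SE 0.246, adjusted p = 0.0454), or 1.64-fold, with groups that overlapped through the same replicate 4 at 10.55. This call was lost when any of 14 arrays was left out, with values from 0.58 to 0.80 and adjusted p from 0.0505 to 0.127. These were LKO fasted replicates 1, 2, 3, 5 and 6, LWT fasted replicates 1, 2, 4, 5 and 6, and replicates 2 and 5 of each fed group. The log2 differences of Acot1, Acot3 and Acot4 were 0.65 (adjusted p = 0.0523), 0.60 (adjusted p = 0.302) and 0.44 (adjusted p = 0.191). Acot1 gained a call without any of 6 arrays, LKO fasted replicate 4, LKO fed replicates 1 and 6, LWT fasted replicate 3 and LWT fed replicates 4 and 6, with values from 0.63 to 0.75 and adjusted p from 0.0177 to 0.0491. The type II genes gave values between -0.08 for Acot12 and 0.19 for Acot8, and none passed. Without LKO fasted replicates 1 and 2 the count of members called was 1, and Acot5 had a value of 0.67 (adjusted p = 0.121).

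The change with fasting was then set against genotype in a single term, the change in LKO minus the change in LWT. Of all genes tested 1.55% had a larger and 1.55% a smaller change in LKO by the call rule, and 4 members, all of type I, had a larger change. Acot2 had the largest difference, 2.69 (SE 0.407, adjusted p = 0.00043) on the log2 scale, so its rise was 6.43-fold greater in LKO. It ranked 7 of 21495 genes from the highest. The difference was 1.22 (SE 0.319, adjusted p = 0.0234) for Acot1, 1.27 (SE 0.338, adjusted p = 0.025) for Acot5 and 1.07 (SE 0.31, adjusted p = 0.0377) for Acot4.

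Acot3 had a difference of 1.33 (SE 0.53, adjusted p = 0.131), of a size like that of Acot1 but with a wider error, and was not called. Its 95% interval ran from 0.229 to 2.43, and without LWT fed replicate 6 it was called at 1.63 (adjusted p = 0.0364). Acot8 passed the adjusted p with 0.52 (SE 0.122, adjusted p = 0.0118) and missed the 1.5-fold minimum. Acot7, Acot9, Acot12 and Acot13 had values between -0.02 and 0.46 with adjusted p between 0.0902 and 0.96.

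The order of the group means was the same for the 5 type I genes and Acot8, with LKO fed lowest, then LWT fed, LWT fasted and LKO fasted. Of the neighbours in this order, LWT fed and LWT fasted differed for all 6 genes. LKO and LWT fed mice differed by the call rule for Acot4 alone among them, and LWT and LKO fasted mice for Acot2 and Acot5.

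The call of Acot4 was lost without any of 12 arrays, with values from 0.85 to 1.09 and adjusted p from 0.052 to 0.0872. These were LKO fasted replicates 1, 3, 5 and 6, LKO fed replicates 1 and 2, LWT fasted replicates 1, 4 and 5 and LWT fed replicates 1, 4 and 5. Without LWT fed replicate 5 Acot1 had 1.25 (adjusted p = 0.0512) and Acot5 1.30 (adjusted p = 0.054), and without LKO fed replicate 1 Acot5 had 1.09 (adjusted p = 0.0503). Acot2 kept its call in each of the 24 refits, with a difference from 2.44 to 2.85. With no array weights, or with no filter on dim probes, Acot2 was the 1 member called. Without LKO fasted replicates 1 and 2 together, Acot2 had 2.58 (adjusted p = 0.000644), Acot1 1.18 (adjusted p = 0.037) and Acot5 1.23 (adjusted p = 0.0409), all called, while Acot4 had 1.01 (adjusted p = 0.0647) and lost its call. Within the 3 slides Acot2 gave 2.01, 2.80 and 2.70, Acot1 0.62, 1.31 and 1.23, and Acot5 0.64, 1.18 and 1.67.

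**Figure D4:**
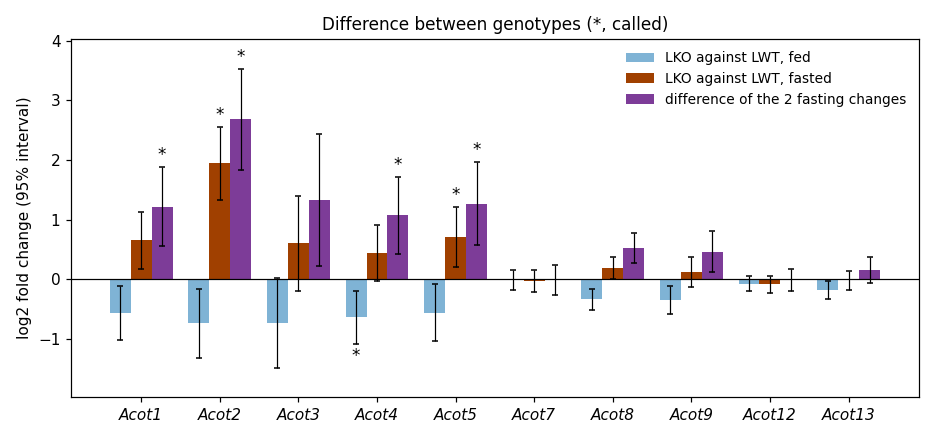
Log2 difference between LKO and LWT (vertical axis) in fed mice (light blue) and fasted mice (brown), and the difference between both changes with fasting (purple), for the 10 members with 95% intervals from limma and an asterisk at called values. In fasted mice Acot2 stands at 1.95 and its difference in fasting change at 2.69, while Acot7 and Acot12 lie near 0 in each.

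Replicate 4 of the LKO fasted group stood apart in the family, which was seen only after the values were known. It was the lowest of its 6 arrays for all 5 type I genes and for Acot8 and Acot12. Acot2 was at 12.16 there and from 13.76 to 14.53 on the other 5, and Acot4 at 10.81 against 12.07 to 12.44. The same array was the lowest for 16 of 21 genes of peroxisomal beta-oxidation and 14 of 16 of mitochondrial fatty acid oxidation, beside 23.8% of all genes tested. It was also the highest of the 6 for 25.2% of all genes tested and for 2 of the 5 type II members, Acot9 at 8.10 and Acot13 at 14.72.

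Its weight in the fit was 0.355, against 0.743 to 1.25 for the other LKO fasted arrays. Its summed hepatocyte markers, 20.68, were the highest of the 6, and its Kupffer cell and macrophage markers, 15.47, lay within the range of the other 5, 14.49 to 16.54. Stellate cell, adipocyte and erythroid sums also lay within the range of the other 5. Its endothelial sum, 14.05, was the lowest of the 6, against 14.19 to 14.85, and so was its pancreas sum, 11.89 against 12.29 to 12.60. Its bile duct sum, 10.27, was the highest, against 9.13 to 9.88, and so was its lymphocyte sum, 10.35 against 10.03 to 10.33. The part of these cell types in the values of this array was not tested. Without it the LKO change with fasting was 6.33 for Acot2, 4.52 for Acot1, 4.63 for Acot3, 2.80 for Acot4 and 5.07 for Acot5. In fasted mice Acot1 was then called at 0.75 (adjusted p = 0.0177), Acot5 at 0.85 (adjusted p = 0.00664) and Acot2 at 2.11 (adjusted p = 1.06e-05). In fed mice Acot4 stayed called at -0.64 (adjusted p = 0.0255) and Acot2 was then called at -0.74 (adjusted p = 0.0418). The difference in fasting change was 2.85 for Acot2, 1.31 for Acot1, 1.19 for Acot4 and 1.41 for Acot5, all called, and 1.49 for Acot3, with an adjusted p of 0.0649.

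Second probes were kept for 5 members. The second probe of Acot3 gave changes with fasting of 3.93 (SE 0.371) in LWT and 5.51 (SE 0.41) in LKO, larger than those of the first probe, and in fed mice it was called lower in LKO at -1.28 (SE 0.38, adjusted p = 0.0256), which the first probe was not. In LKO fed mice this second probe was dim, from 5.46 to 7.65, and passed the background test on 5 of 6 arrays. The second probe of Acot4 gave 1.56 and 2.39, and its values for genotype in fed mice and for the difference of both changes, -0.52 (adjusted p = 0.0997) and 0.83 (adjusted p = 0.0997), were not called.

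The second probe of Acot5 was dimmer, between 5.86 and 6.29 in LWT fed mice. Its linear signals were 58.2 to 78.5 in LWT fed and 61 to 72.4 in LKO fed mice. The median spot signal of the arrays was 69 to 88.5, and at signals this low the size of a change may be understated. It rose with fasting by 1.27 (SE 0.227, adjusted p = 0.000107) in LWT and 1.51 (SE 0.251, adjusted p = 4.55e-05) in LKO, far less than the first probe, and the difference of both changes was 0.24 (adjusted p = 0.718). So both probes of Acot5 rose with fasting and only the first was called for genotype. For Acot7 the second probe lay within 0.04 of no change in all 5 comparisons. That of Acot9 passed the adjusted p in LWT fasting at -0.30 (adjusted p = 0.00504) and in the difference of changes at 0.41 (adjusted p = 0.0424), both under the minimum fold. By genotype in fed mice, where the first probe passed the adjusted p, the second gave -0.16 (adjusted p = 0.204).

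Other enzymes that hydrolyse acyl-CoA or acyl thioesters gave another picture. Of 10 such genes, 7 were tested. Acot11, a hotdog-fold thioesterase known from brown fat and also called Them1, fell with fasting, its log2 change being -1.88 (SE 0.184, adjusted p = 4.33e-08) in LWT and -1.79 (SE 0.203, adjusted p = 3.16e-07) in LKO. It was also lower in LKO than in LWT, at -1.75 (SE 0.188, adjusted p = 5.19e-06) in fed and -1.65 (SE 0.2, adjusted p = 7.7e-06) in fasted mice. The group means of Acot11 ran from 10.31 in LWT fed mice through 8.49 in LKO fed and 8.34 in LWT fasted mice to 6.63 in LKO fasted mice.

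Acot6, the next gene of the type I cluster, was called once, in LKO mice with fasting, at 0.71 (SE 0.18, adjusted p = 0.0031), with 0.04 in LWT and a difference of both of 0.67 (adjusted p = 0.0956). Acot10, a close copy of Acot9, gave values between -0.30 and 0.41 and no call. It passed the adjusted p by genotype in fed mice at -0.30 (adjusted p = 0.021) and for the difference of both changes at 0.41 (adjusted p = 0.0484). Both were under the minimum fold. Baat, which joins bile acids to amino acids, gave -0.32 and -0.35 with fasting in LWT and LKO, under the minimum fold. Them4, Ppt1 and Ppt2 were not called in any comparison. Acot10 and Acot9 had opposite signs in LWT and LKO fasting, -0.19 and 0.22 for Acot10.

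Genes that make, move or burn acyl-CoA were described beside the family. Of 21 genes of peroxisomal beta-oxidation, 7 rose and 1 fell with fasting in LWT, and 11 rose and 2 fell in LKO. Ehhadh, the bifunctional enzyme of this pathway, had the largest rise, 2.63 (SE 0.182) in LWT and 4.23 (SE 0.201) in LKO, and a difference of both of 1.60 (SE 0.271, adjusted p = 0.00108). It was also higher in LKO than in LWT fasted mice, by 1.34 (adjusted p = 6.53e-05). Nudt7, a peroxisomal coenzyme A hydrolase, fell, at -1.91 in LWT and -1.57 in LKO. Pex11a, a peroxisomal division factor, was lower in fed LKO mice at -0.84 (adjusted p = 0.000343), and Pecr, a peroxisomal enoyl-CoA reductase, was lower in fasted LKO mice at -1.09 (adjusted p = 2.68e-09) and had a difference of both changes of -0.66.

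Of 16 genes of mitochondrial fatty acid oxidation, 9 rose in LWT and 11 in LKO with fasting and none fell or was called for genotype or for the difference of both. With the 1.5-fold minimum set aside, 10 of the 16 passed the adjusted p for the difference of both changes, all larger in LKO. By the adjusted p alone 4.11% of all genes tested had a larger change in LKO. In the same way 9 of the 16 passed as higher in LKO fasted mice, beside 10% of all genes, and 4 as lower in LKO fed mice, beside 7.6%. Cpt1a, which makes acylcarnitine at the outer membrane, had the largest rise, 1.27 (SE 0.0724) in LWT and 1.65 (SE 0.0801) in LKO. The median over this list was 0.65 in LWT and 1.12 in LKO, and over the peroxisomal list 0.42 and 0.74.

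Enzymes that form acyl-CoA moved both ways. Of 9 long-chain synthetases tested, 3 rose and 2 fell with fasting in each genotype. Acsl1, the main long-chain synthetase of liver, rose by 0.93 in LWT and 1.43 in LKO, Slc27a1, a fatty acid transport protein, rose by 0.72 and 1.49, and Acsl3 fell, at -1.27 in LWT and -0.90 in LKO. Acsl4 was higher in fasted LKO than in LWT mice at 0.85 (adjusted p = 0.000202), and Acsl5 had a difference of both changes of 0.61 (adjusted p = 0.0172).

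Of 9 short- and medium-chain synthetases, 2 rose and 1 fell in LWT, and 1 rose and 4 fell in LKO. Acss2, the cytosolic acetyl-CoA synthetase that acts opposite to Acot12, fell with fasting, at -1.79 in LWT and -1.77 in LKO, and was lower in LKO than in LWT at -0.82 in fed and -0.80 in fasted mice. Acss3 rose by 0.83 in LWT, with 0.12 (adjusted p = 0.674) in LKO, and Acsf3 rose by 0.76 in LKO, with 0.11 (adjusted p = 0.321) in LWT. The difference of both changes was 0.65 for Acsf3 and -0.62 for Acsm1.

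Of 10 factors known to act on thioesterase genes, 4 rose and 2 fell in LWT, and 3 rose and 2 fell in LKO. Those that rose in LWT were Ppara, Ppargc1a, Ppargc1b and Creb3l3, and all but Ppargc1a were called higher in LKO too. Ppargc1b, a coactivator, rose by 1.11 in LWT and 0.81 in LKO, and Creb3l3, a liver fasting factor, by 0.59 and 0.94. Ppard fell, at -0.95 in LWT and -0.79 in LKO, and so did Mlxipl, which encodes ChREBP, at -0.92 and -0.81. Pparg was lower in fed LKO than in LWT mice at -1.02 (adjusted p = 0.0107), and none of the 10 was called for genotype in fasted mice or for the difference of both changes.

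**Figure D5:**
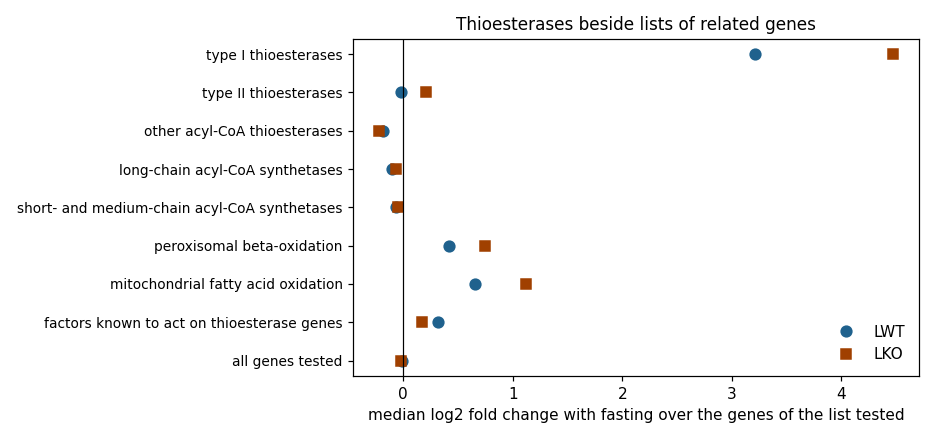
Median log2 fold change with fasting (horizontal axis) over the tested genes of each list (vertical axis) in LWT (circles) and LKO (squares). The type I thioesterases are at 3.21 and 4.47, mitochondrial fatty acid oxidation at 0.65 and 1.12, and all genes tested at -0.01 and -0.02.

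Likeness to the members was measured as the root mean square difference between 2 log2 profiles over the 24 arrays, each first centred on its own mean. Acot1 and Acot5 were the closest pair within type I, at 0.278, while their own SDs over the arrays were 1.92 and 2.15. Outside the family Acot1 was nearest to Rab30 (0.309), Gpat3 (0.41) and Ehhadh (0.421), and the same genes were the nearest to Acot5, at 0.5, 0.51 and 0.545, and to Acot3, at 0.596, 0.547 and 0.585. Rab30 encodes a small GTPase of the Golgi, and Gpat3 a glycerol-3-phosphate acyltransferase.

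Acot2 was nearest to Acot5, at 0.535. Its closest outside the family were Cyp4a10 (0.729), a fatty acid omega-hydroxylase, Ehhadh (0.775) and Cidec (0.792), a lipid droplet protein, beside its own SD of 2.51. Cidec had a difference of both fasting changes of 3.12 and Cyp4a10 of 0.29, on either side of the 2.69 of Acot2. Acot4 was nearest to Crat (0.244), carnitine acetyltransferase, Gm32618 (0.296) and Plin2 (0.303), a lipid droplet coat protein. Acot8 was nearest to Etfdh (0.128), Rtf2 (0.131) and Vwa8 (0.142), and Acot12 to Acadm (0.131), the medium-chain acyl-CoA dehydrogenase, Elmod3 (0.141) and Tdrp (0.143).

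Markers of other cell types were read on the same arrays. Of 10 Kupffer cell and macrophage markers, C1qa and C1qb fell with fasting in LWT and none was called in any other comparison. For the difference of both changes all 10 were positive, from 0.16 to 1.19 (median 0.45), and all 8 hepatocyte markers negative, from -0.65 to -0.0049 (median -0.20), with none called in either list. None of 8 endothelial markers was called with fasting, and Lyve1 was lower in LKO fed mice, where the list ran from -0.88 to 0.11 (median -0.29). Of 8 stellate cell markers, Lrat and Col3a1 fell with fasting in both genotypes. That list ran from -0.90 to 0.25 (median -0.12) in LWT and from -1.23 to 0.25 (median -0.23) in LKO. Of 6 bile duct markers, Krt19 fell with fasting in both genotypes and Spp1 in LKO, while the list ran from -0.67 to 0.55 (median -0.18) in LWT and from -0.95 to 0.58 (median -0.16) in LKO.

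Larger differences lay between genotypes, in single markers. Spp1 was the 1 bile duct marker called, lower in LKO at -1.50 in fed and -2.10 in fasted mice, while the medians of the 6 were -0.30 and -0.29. Of 4 adipocyte markers tested Cfd alone was called, lower at -2.76 and -3.00, while the medians were -0.13 in both states. Summed log2 levels of the 6 bile duct markers lay between 11.07 and 11.77 in LWT fed, 10.80 and 11.14 in LWT fasted, 9.74 and 10.90 in LKO fed and 9.13 and 10.27 in LKO fasted mice. The adipocyte markers Adipoq and Ucp1 did not pass the filter. Sums of the 4 tested lay between 9.08 and 10.32 in LWT fed and 8.67 and 12.44 in LWT fasted mice. In LKO they lay between 8.60 and 8.80 in fed and 8.52 and 9.02 in fasted mice. LWT fasted replicates 1 and 5 were the highest, at 12.44 and 11.76, and replicate 5 was also the lowest of its group for Acot2. Of 3 erythroid markers tested, Alas2 was lower in LKO in both states, while the median of the 3 was -0.30 in fed and 0.15 in fasted mice. Of 2 pancreas markers tested, Cela1 fell with fasting in both genotypes and was lower in LKO fasted mice. None of 5 lymphocyte markers tested was called. The part of these cell types in the results on the thioesterases was not tested.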

How the data were processed

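Livers of 24 mice were profiled on single-colour Agilent arrays. Per the file headers, the deposited scanner files hold Feature Extraction 10.10.1.1 spot intensity values with mm9 probe positions. The series table deposited by the authors holds log2 values, filtered and quantile normalized, and served as an alternative.

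Median signals of 56605 probes were filtered (32197 kept, each passing the scanner's background test in 5 or more arrays of 1 group), log2 transformed and quantile normalized. Fits used limma 3.58.1 in R 4.3.3 with array weights, group means and the slide (3 slides of 8 arrays, 2 per group on each) in place of the washing bath, which the labels do not name. p-values were adjusted by Benjamini-Hochberg over all probes kept. Gene symbols came from RefSeq accessions for 32989 probes and otherwise from the file. No pairing of the mice by replicate number was detected. The number of arrays limits the precision. The fit was tested on simulated data with known changes. Named were the 10 members, the other thioesterases and the called genes with the largest rise and fall of each related list. Factors that rose with fasting, called cell type markers and the 3 genes nearest to each called member were named too. Members and lists were chosen with earlier results of these data known. Alternatives were the signal, filter, normalization, slide term, array weights, replicate block, arrays left out, all probes averaged, and each slide alone.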

Additional observations from a re-analysis of the deposited data

Results flagged for a closer look

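Of the 10 members, 7 had LKO fasted replicate 4 well below the other 5 arrays of its group. On the log2 scale it was at 15.94 for Acot1, 12.16 for Acot2, 12.12 for Acot3, 10.81 for Acot4, 10.55 for Acot5, 13.12 for Acot8 and 12.75 for Acot12. In each the gap to the nearest array, as a share of the range of the group, was above Dixon's 95% critical value for 6 samples. For Acot2, LWT fasted replicate 5 was also far from its group, at 11.38 against 12.06 to 12.38. In all, 8 of 40 groups passed this limit, where chance gives about 1 in 20, and the members share arrays. The change with fasting differed between LKO and LWT by a test of the difference itself, the interaction term of limma, at 2.69 for Acot2, 1.27 for Acot5, 1.22 for Acot1 and 1.07 for Acot4.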

How the results depend on the processing

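The 7 rises with fasting were found in both genotypes under every setting that counted the members called. Every refit without 1 array called 7 members in each genotype. Within slide 1, Acot3 in LWT (2.31, adjusted p = 0.147) and Acot4 in LWT (1.13, adjusted p = 0.259) and LKO (2.13, adjusted p = 0.0579) were not called. Over the 21 called values, none changed sign in any setting. With 1 array left out, keeping the same probes and normalized values, 466 were as called and 38 lost the call, under other settings 229 and 19, and within single slides 42 and 21.

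Counts by genotype were less stable, and the cause was not tested. Without 1 array, from 0 to 4 members were called in fed mice, 1 to 3 in fasted mice and 1 to 5 for the difference of both changes. In fed mice, 0 were called with no filter, no array weights, only the compared groups or without LKO fasted replicates 1 and 2, 2 with the deposited log2 table or the mean of all probes, 3 with no minimum fold change and 5 with the replicate block. In fasted mice, 1 was called with the processed signal scaled to its 75th percentile, no filter, no array weights, only the compared groups or without LKO fasted replicates 1 and 2, and 3 with the deposited table, the stricter filter, no slide term or the replicate block. For the difference of both changes, 1 was called with no filter or no array weights, 3 with all probes averaged or without LKO fasted replicates 1 and 2, and 5 with the replicate block or no minimum fold change. No pairing of the mice by replicate number was detected. Of 36 same-numbered pairs of arrays, 4 correlated over 0.1, and 1 array correlated best with its own number. A weak pairing could be missed this way.

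Only uncalled values changed sign. For Acot7, the difference of both changes was 0.0502 with the processed and 0.0506 with the median signal scaled to the 75th percentile, 0.00877 with normexp, 0.0104 without LKO fasted replicates 1 and 2, 0.0261 with no filter, 0.0254 with no slide term, 0.132 with no array weights, 0.00817 with the replicate block, 0.00266 with all probes, 0.509 within slide 1 and 0.00968 within slide 2. Its change with fasting in LKO was 0.00204 with the median signal scaled, 0.0137 with no array weights, 0.108 within slide 1 and 0.0480 within slide 2, and in LWT 0.0383 within slide 2 and 0.00906 within slide 3. Acot7 by genotype in fasted mice was 0.0307 with no array weights, 0.200 within slide 1 and 0.0250 within slide 3, and in fed mice 0.149 within slide 3. For Acot12, the difference of both changes was 0.0262 with the processed and 0.0318 with the median signal scaled, 0.0112 with the replicate block and 0.158 within slide 3, and genotype in fed mice gave 0.0774 and 0.0161 within slides 1 and 2. Within slide 1, Acot9 in fed mice was 0.0506 and Acot8 in fasted mice -0.231. Within slide 3 the difference of both changes of Acot13 was -0.0432. With 1 array left out, Acot7 ranged from -0.0562 to 0.0315 for the difference of both changes, -0.0522 to 0.0258 for fasting in LWT, -0.0667 to 0.0157 for fasting in LKO, -0.0437 to 0.0220 by genotype in fed and -0.0712 to 0.0175 in fasted mice. Acot12 ranged from -0.0460 to 0.0282 for the difference of both changes, and Acot13 from -0.0802 to 0.0228 by genotype in fasted mice.

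The difference of both changes was not fitted with only the compared groups, since it needs all 4. The number of members called was not counted within slides, which hold 2 arrays a group, though calls of single values were followed there.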
